A study of Canis lupus familiaris with 6 samples.

Results

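The epithelial keratins were followed in transformed dog kidney cells grown alone or among β-catenin-activated neighbours. On the arrays, 10 keratin genes were sought by exact gene name, namely KRT5, KRT7, KRT8, KRT14, KRT15, KRT17, KRT18, KRT19, KRT20 and KRT80. The array design named a feature (a 60-base probe) for 8 of them, with 10 features among 43603 non-control features, and none for KRT7 or KRT8. KRT14 was selected on the comparison described here, having been seen to fall in these same arrays, so for these 10 genes the differences between cultures are a description and carry no p-value.

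MDCK cells are a line of dog kidney epithelial cells. All 6 samples were MDCK-pTR cells with mCherry-tagged β-catenin Δ131, an activated β-catenin without its N-terminus, and GFP-tagged RasV12, an active Ras oncoprotein switched on with tetracycline for 24 h. In single culture (3 arrays) these cells were grown alone, and in mix culture (3 arrays) 10 MDCK cells with mCherry-β-catenin Δ131 and no RasV12 surrounded each of them. Both groups were plated on collagen, treated with tetracycline, sorted for GFP and hybridised with Cy3-labelled total RNA. No cells without β-catenin Δ131 or without RasV12 were among the 6 samples. Nothing in the labels says that the replicates came from separate cultures, so errors measure only the spread between these samples.

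Keratins are the intermediate filament proteins of epithelia. A filament is built from pairs of an acidic type I chain and a basic type II chain. Simple epithelia such as kidney tubules are known for KRT8 (type II) with KRT18 and KRT19 (type I), whereas the basal layer of stratified epithelia is known for KRT5 (type II) with KRT14 and KRT15 (type I). KRT17 marks skin appendages and injured epidermis, KRT20 gut and urothelial cells, and KRT80 is a type II chain of many epithelia.

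The sequences show what the KRT14 values rest on and which features they were compared with. In CanFam3.1, both KRT14 features lay on chromosome 9, probe 1 (A_11_P148833) at chr9:21194996-21195055 and probe 2 (A_11_P212148) at chr9:21195005-21195064, on the plus strand. They shared 51 of 60 bases, so they are close to 1 measurement. The 30-base stretches below are printed for KRT14, KRT15 and KRT5 probe 2 because each holds the polyadenylation signal AATAAA in capitals, and the design's letters for KRT5 probe 1, KRT19 and KRT18 are printed to show what was compared with them.
KRT14 probe 1, bases 17 to 46: cttgtcccctcctggcaatcAATAAAgctt
KRT14 probe 2, bases 8 to 37: cttgtcccctcctggcaatcAATAAAgctt
KRT15, bases 16 to 45: tgtaccatgtctgtctatgcAATAAAgaat
KRT5 probe 2, bases 31 to 60: tgactacctccagaatgtgttcAATAAAat
KRT5 probe 1, with its closing stop codon in capitals: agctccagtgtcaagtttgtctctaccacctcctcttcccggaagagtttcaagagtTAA
KRT19: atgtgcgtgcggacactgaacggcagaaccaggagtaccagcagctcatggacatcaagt
KRT18, bases 1 to 30: agaccaacgacaccaaaattctgaggcgtt
The letters AATAAA were found, on the strand the design gives, in 4 of the 10 keratin features and in 8.67% of all 43603 features. Neither KRT14 feature shared a run of 14 bases with a feature of another name. KRT15 shared 15 bases with a feature that carries an identifier only, and the features of KRT17, KRT18, KRT19 and KRT80 shared no run of 14 bases with any other. KRT5 probe 1 shared 52 bases with a feature that the design describes as keratin 5 without using its symbol.

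Each array held 43803 non-control spots, of which 61.11% to 65.66% were well above background and none were saturated. Replicate 1 of each culture was taken as slide 1 and the other 4 arrays as slide 2. They were told apart by the scanner software version in the file headers (11.5.1.1 against 12.1.1.1). Scan resolution differed with it (3 against 5 µm). No slide identifier was read, so slide here names these sets of arrays. For mix culture, the authors' table columns of replicates 2 and 3 followed each other's scanner files (r = 0.999 and 0.993 across features after centring on the slide) and not their own (0.457 and 0.459), so which of these is replicate 2 is unsettled, although both are mix culture. Testing was limited to the 26621 features that stood clear of background (well above it by the scanner software's flag) throughout at least 1 of the cultures. limma called 18 of them lower (0.0676%) and 217 higher (0.815%) in mix culture, whereas 4077 were called from the authors' slide-centred table, with 2129 lower and 1948 higher. That table was fitted without a slide term. Its errors therefore did not count the centring, and its calls may be too many.

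The KRT14 signal was 2.88-fold lower in mix culture than in single culture. KRT14 is the type I keratin of basal epidermal cells, where it pairs with KRT5. Probe 1 read 9648, 6331 and 6497 intensity units in single culture replicates 1, 2 and 3, and 2793, 2814 and 2417 in mix culture. Every mix culture array lay below every single culture array. In normalised log2 signal (log2 of the signal over the array's 75th percentile), single culture was at 5.35 ± 0.18 and mix culture at 3.82 ± 0.20 (SD, n = 3 arrays each). The difference, mix minus single culture, was -1.53 (SE 0.18), which left 34.7% of the single culture signal. Probe 2 read 9167, 5892 and 5993 in single culture and 2386, 2459 and 2087 in mix culture, a difference of -1.64 (SE 0.19). The signal of probe 1 over probe 2 on the same array had a log2 ratio of 0.10 (SD 0.02, n = 3) for single culture, against 0.21 (SD 0.02, n = 3) for mix culture. A further feature, which carries an identifier only and is described by likeness to mouse keratin 14, was dim (1.41 to 13.1, well above background on 4 arrays), was not tested and had groups that overlapped. In bulk RNA, fewer KRT14-rich cells among those sorted and less KRT14 RNA per cell cannot be told apart.

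**Figure D1:**
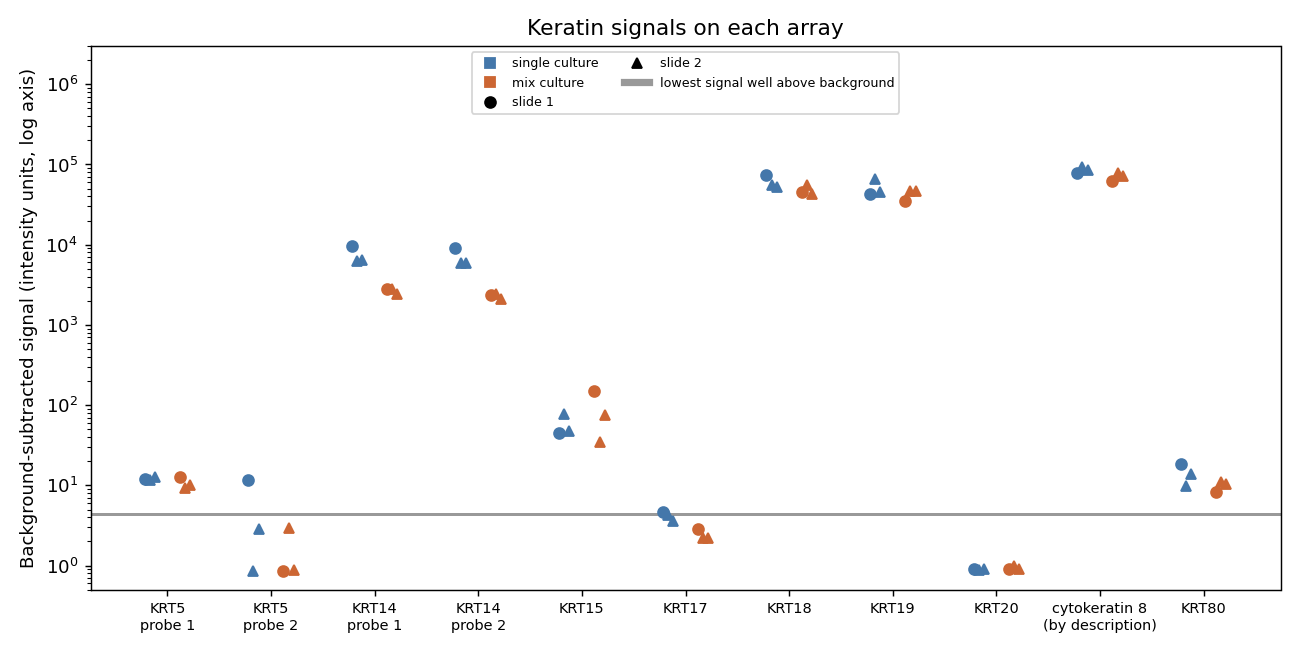
Background-subtracted signal of each keratin feature (log axis, intensity units) on each array, with single culture in blue, mix culture in orange, circles for slide 1 and triangles for slide 2. The KRT14 groups do not overlap, from 6331 to 9648 against 2417 to 2814 for probe 1. Heights of different features are not comparable.

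The fall was seen on both slides. For KRT14 probe 1 the difference was -1.97 on slide 1 (1 array per culture) and -1.31 on slide 2 (2 arrays per culture). Each slide held both cultures equally, so slide as a block leaves the difference as it is by construction, and its SE was then 0.15. With culture in the model the KRT14 difference between slides was 0.02 (slide 2 minus slide 1, SE 0.16, limma adjusted p = 0.932). The culture difference on slide 2 less that on slide 1 was 0.66 (SE 0.21, limma adjusted p = 0.403) for probe 1 and 0.72 (SE 0.21, adjusted p = 0.367) for probe 2. In that test, which called 0.0376% of features, slide 1 had 1 array per culture and was assumed to vary like slide 2, so a p above the threshold does not show that the slides were alike.

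Of the 7 keratin features tested, 2 were called lower in mix culture, both of KRT14, and none were called higher. With slide as a block the count was the same, against a background of 3.22% lower and 3.98% higher. The groups did not overlap, lower in mix culture, for 2 of the 7 keratin features, and this held for 8.66% of all features (7.85% for the opposite direction). Because KRT14 was chosen for its fall, nothing is read from these counts. Without single culture replicate 3, mix culture replicate 2 or mix culture replicate 3, no keratin feature was called, and without single culture replicate 2 only KRT14 probe 2 was, although the KRT14 difference stayed between -1.60 and -1.41 whichever array was left out.

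The other basal keratins that were tested, KRT5 and KRT15, did not share the size of the KRT14 difference. KRT5, its usual partner, read 12.1, 11.8 and 12.8 in single culture and 12.9, 9.25 and 10.1 in mix culture (probe 1, chr27:2573126-2573185). These signals were low and the groups overlapped, with a difference of -0.27 (SE 0.17). KRT5 probe 2, which lies 343 bases further along the chromosome, was well above background only in single culture replicate 1 (11.8) and ranged from 0.848 to 2.91 on the other 5 arrays, so no difference is given. Of the features that the design describes as keratin 5 without the symbol, 2 were well above background on all 6 arrays. These differed by -0.08 (SE 0.15) and -0.21 (SE 0.25). The former read 11.3 to 16.3, also low, and shared 52 bases with KRT5 probe 1, so these are close to 1 measurement. Another feature so described (A_11_P065461) was not well above background on any array. None of the 3 keratin 5 features that were tested had groups that were apart.

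KRT15, another type I chain of basal cells, did not follow KRT14. It read 44.5, 78.1 and 47.3 in single culture and 150, 35.1 and 75.5 in mix culture, the highest and lowest values both being mix culture arrays. The difference was 0.36 (SE 0.48), at 1.58 on slide 1 and -0.25 on slide 2. The difference between slides in that value was -1.82 (SE 0.72, limma adjusted p = 0.52). KRT17 read 4.66, 4.22 and 3.58 in single culture and 2.86, 2.22 and 2.24 in mix culture, so its groups did not overlap. It was well above background only in single culture replicate 1 and was not tested, and no fold is given since its single culture mean did not exceed the detection level of the mix culture arrays.

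The simple keratins KRT18 and KRT19 were well above background on all arrays, and their differences were smaller than that of KRT14. KRT18, the type I partner of KRT8, read 73485, 55410 and 52475 in single culture and 45418, 55664 and 42311 in mix culture. In signal, mix culture replicate 2 lay above 2 single culture arrays, and the difference was -0.40 (SE 0.20). Within slides it was -0.87 on slide 1 (1 array per culture) and -0.16 on slide 2. KRT19, the smallest keratin, read 42343, 66781 and 45609 in single culture and 34816, 46450 and 47140 in mix culture, with a difference of -0.32 (SE 0.33). That difference was -0.03 without mix culture replicate 1 and -0.06 without single culture replicate 2. The groups overlapped for both genes.

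KRT8 had no feature by name, but 1 feature without a symbol is described as cytokeratin 8 and lies 40.0 kb from KRT18 on chromosome 27 (chr27:2229288-2229347). It read 78644, 93373 and 84459 in single culture and 61949, 77663 and 70995 in mix culture. Mix culture replicate 1 was the lowest and single culture replicate 2 the highest, and the difference was -0.35 (SE 0.25), with groups that overlapped once normalised. KRT20 did not clear background on the 6 arrays (0.881 to 0.977), so the gut and urothelial keratin was not detected at this signal level. KRT80 read 18.5, 9.84 and 13.9 in single culture and 8.33, 11.1 and 10.5 in mix culture. These overlapped, and its difference of -0.52 (SE 0.28) was -1.33 within slide 1 and -0.12 within slide 2 (difference 1.21, SE 0.29, limma adjusted p = 0.322).

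**Figure D2:**
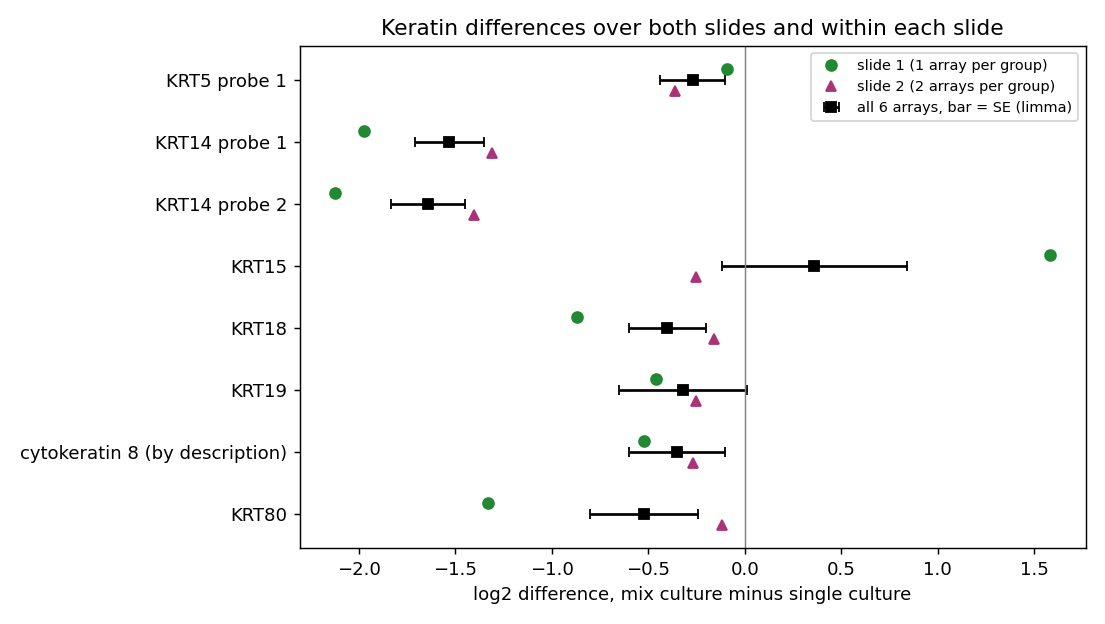
Difference in normalised log2 signal (mix minus single culture) for the tested keratin features and the feature described as cytokeratin 8, over all 6 arrays (squares, bars are SE) and within slide 1 (circles) and slide 2 (triangles). KRT14 lies at -1.53 and -1.64, and the other features lie between -0.52 and 0.36.

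Taking the brightest feature of each gene, the median difference was -0.27 over the 3 tested basal keratins (KRT5, KRT14 and KRT15) and -0.36 over the 2 tested simple keratins (KRT18 and KRT19), beside -0.05 over all features tested. The basal differences spanned -1.53 to 0.36, and the basal median rests on KRT5. The order of these medians was not stable, since slide 2 alone gave -0.36 for basal and -0.20 for simple keratins, leaving out mix culture replicate 1 gave -0.26 and -0.12, and without single culture replicate 2 they were -0.24 and -0.23. Within each array, the ratio of KRT14 to another keratin removes what all keratins share. KRT14 over KRT18 was -2.93, -3.13 and -3.01 in log2 signal ratio on the single culture arrays and -4.02, -4.31 and -4.13 on the mix culture arrays. The ratio was therefore 2.19-fold lower in mix culture, with groups that did not overlap. The KRT14 ratio was lower 2.31-fold relative to KRT19, 2.39-fold relative to KRT5 and 2.26-fold relative to the feature described as cytokeratin 8. Because KRT14 was chosen for its fall in these same arrays, that choice favoured lower ratios, and nothing is read from them or from their groups being apart. KRT18 over the cytokeratin 8 feature moved by -0.05 in log2, from -0.51 (SD 0.36) to -0.56 (SD 0.16, n = 3 in each culture).

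**Figure D3:**
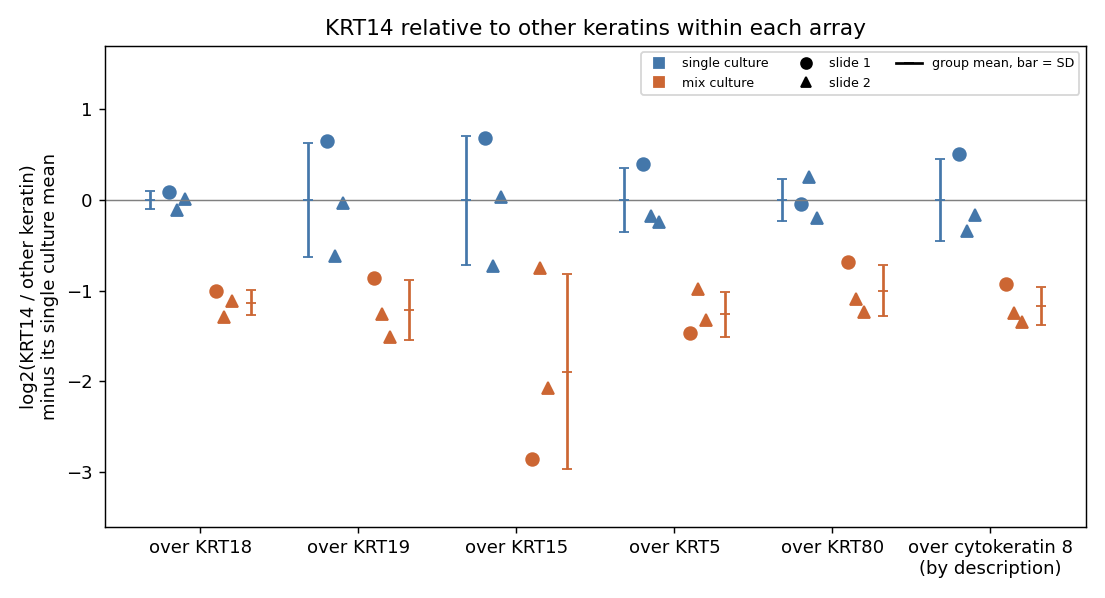
Log2 ratio of KRT14 to another keratin on the same array, less its single culture mean, for single culture (blue) and mix culture (orange), with group means and SD as bars. The mix culture means lie between 1.00 and 1.89 below the single culture means, and KRT15 has the widest spread.

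Slide differences were common in the series, with 47.2% of features called between slides by limma with culture in the model, but 1 of the 7 keratin features was called. KRT19 was higher on slide 2 by 0.77 (SE 0.17, limma adjusted p = 0.00863). The feature described as cytokeratin 8 also rose by 0.58 (SE 0.12, adjusted p = 0.00567). Not all keratin slide differences were in that direction. A feature described as keratin 5 (A_11_P179093) gave -0.59 (slide 2 minus slide 1, SE 0.11, limma adjusted p = 0.00314). KRT4 gave -0.65 (SE 0.11, adjusted p = 0.00232). The feature described as keratin 5 that overlaps KRT5 probe 1 gave 0.03 (SE 0.12, adjusted p = 0.871). KRT18 gave 0.19 (SE 0.17, adjusted p = 0.40). The culture difference was not called as differing between slides for the 7 keratin features, with the limit on slide 1 given above.

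Type I keratin genes lie together on chromosome 9 and type II genes on chromosome 27, except KRT18, which sits in the type II cluster. The array named 26 features of 23 keratins over 856 kb of chromosome 9 and 16 features of 15 keratins over 693 kb of chromosome 27. Of the 26, 8 were tested, and of the 16, 5 were. KRT42 and KRT16, type I chains 42.6 and 25.6 kb before KRT14, differed by -0.52 (SE 0.26) and -0.57 (SE 0.31). The KRT16 difference was -1.58 on slide 1 (1 array per culture) and -0.07 on slide 2, where KRT14 probe 1 gave -1.97 and -1.31. KRT19 and KRT15, 49.5 and 59.1 kb beyond it, are those given above. Over both slides together, these tested neighbours of KRT14 lay between -0.57 and 0.36, and KRT14 at -1.53. KRT17, 38.4 kb before KRT14, was too dim to test and is not in that range.

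**Figure D4:**
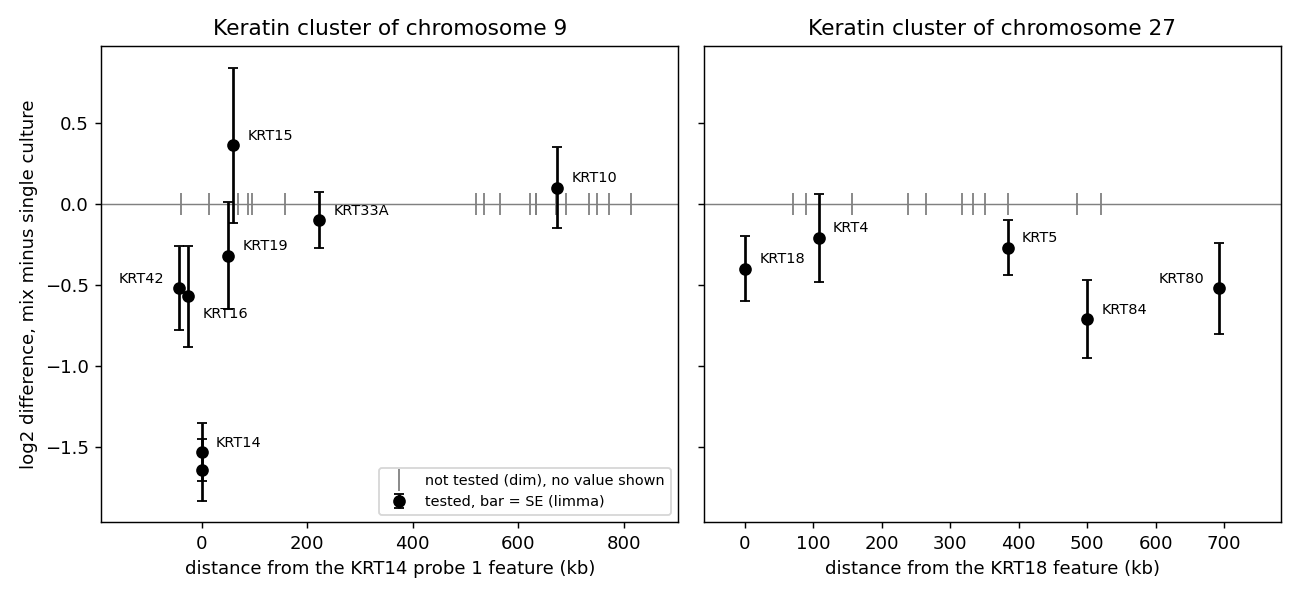
Difference in log2 signal (mix minus single culture) of keratin features by distance in kb from KRT14 probe 1 on chromosome 9 and from KRT18 on chromosome 27, with SE as bars and ticks at 0 for features too dim to test. Among the tested features, the KRT14 pair lies at -1.53 and -1.64 and the others between -0.71 and 0.36.

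Among 30 other named keratins, 6 were tested and 20 were not well above background on any array. The 6 were KRT4, KRT10, KRT16, KRT33A, KRT42 and KRT84. Of these, 5 were lower by sign, as were 58.0% of all features tested. None were called, and the median was -0.37. With slide as a block 1 of the 6 fell, where 3.22% of all features did. It was KRT84, a hair and nail keratin, by 0.71 (SE 0.15, limma adjusted p = 0.032). The brightest feature of KRT10, the type I keratin of cells above the basal layer, read 4741, 3843 and 3494 in single culture. It read 7867, 3158 and 3602 in mix culture, a difference of 0.10 (SE 0.25). Another feature named KRT10 (A_11_P0000020203) read 0.842 to 1.98 and was not well above background on any array. Detection of KRT10 thus rests on 1 of its features.

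The proteins that anchor keratins and the factors that drive epithelial genes were described in the same way. Of 17 anchors on the array (plakins, desmosome proteins and hemidesmosome proteins), 16 were tested, with 12 lower and 4 higher by sign (58.0% of all features tested were lower by sign), none called, and a median of -0.21. With slide as a block 3 of the 16 fell, where 3.22% of all features did, namely the desmosomal plakin DSP (-0.46, limma adjusted p = 0.0407), the plakin PPL (-0.59, adjusted p = 0.0126) and the laminin chain LAMB3 (-0.56, adjusted p = 0.0448). Of 14 intermediate filament genes of other classes, 7 were tested, none were called, and the median was -0.10. Vimentin (VIM), of mesenchymal cells, differed by 0.21 (SE 0.17). With slide as a block 2 of the 7 fell, against the same 3.22%. They were LMNA and LMNB2, of the nuclear lamina, by 0.61 and 0.47 (limma adjusted p = 0.0197 and 0.0312).

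Of 14 epithelial transcription factors, 10 were tested, none were called, and the median was -0.05. TP63, the factor of basal cells, was not well above background on any array. TFAP2C read 15.6, 12.1 and 11.3 in single culture and 7.35, 2.77 and 4.77 in mix culture, where it was well above background on 1 of 3 arrays, so no difference is given although it counts among the 10. With slide as a block 1 of the 10 was called lower, where 3.22% of all features were, and 2 were called higher, against 3.98%. That lower call was TFAP2C, with the limit just given. In the same fit EHF rose by 1.57 (SE 0.18, limma adjusted p = 0.00226) and ELF3 by 1.25 (SE 0.18, adjusted p = 0.00575). EHF and ELF3 are ETS factors of epithelia. Of 12 genes of stratified differentiation, 7 were tested, none were called, and the median was -0.17. With slide as a block 1 of the 7 fell, where 3.22% of all features did. It was SFN, a 14-3-3 protein of keratinocytes, by 0.67 (limma adjusted p = 0.041).

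All 8 kidney tubule markers on the array were well above background on all 6 arrays, and 3 of the 8 (CDH1, CLDN4 and MAL) were lower with slide as a block, against 3.22% of all features. The summed kidney signal was 71551 to 118494 in single culture and 58928 to 97405 in mix culture. The summed signal of 4 keratinocyte markers was 520 to 1072 in single culture and 398 to 742 in mix culture, with TP63 undetected. Of 8 fibroblast markers, 3 were well above background on all arrays (sums of 200.1 to 477.1 in single and 178.3 to 451.5 in mix culture), with COL3A1, PDGFRA and DCN undetected. Of 7 blood markers, 4 were so (sums of 235.4 to 356.0 and of 228.5 to 359.7), with PTPRC and LYZ undetected. Of 4 endothelial markers, 3 were so (sums of 935 to 2909 and of 858 to 3374). Most of that was VWF, which read 2728 in single and 3183 in mix culture on slide 1, and 742 to 845 on slide 2. All these sums add signals that were not normalised, so bright features weigh most and slide differences widen the ranges. No marker of these lists was called without the block, and their part in the KRT14 difference was not tested.

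Genes were ranked by how closely their signal followed KRT14 over the 6 arrays after centring on each slide, among 16118 named features well above background on all arrays. The 5 highest were PBK, TLN2, CLDN6, VASP and BAIAP2L1, with Pearson r of 0.998 to 0.999. None of the 5 was called between cultures. The difference was -0.12 (SE 0.15) for PBK, a mitotic kinase, -1.47 (SE 0.25) for CLDN6, a claudin, and -1.01 (SE 0.16) for VASP, an actin regulator. An r of at least 0.9 was reached by 1679 features, and the 6 points share the culture difference and 2 slides.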

How the data were processed

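The keratins, the gene lists and the tests were chosen with earlier results of these data known. The authors deposited scanner files of linear spot intensity, from which background had been subtracted array by array in Agilent Feature Extraction (11.5.1.1 for slide 1, 12.1.1.1 for slide 2). They also deposited a table of log2 values, used here as an alternative, with its steps not given in the sources used here. Here the intensities were put on the log2 scale without flagged spots (5 to 9 per array), repeated spots were averaged, and arrays were aligned at their 75th percentile. limma 3.58.1 (R 4.3.3) compared the cultures by lmFit and eBayes, with a call at a Benjamini-Hochberg adjusted p under 0.05 over all features tested. The steps were tested on simulated data that held no slide effect, so that test does not cover the slide differences of these arrays. Groups came from the sample titles. Every keratin feature is described, with the brightest standing for its gene in medians. With 6 arrays, their number limits the precision. Same-numbered arrays deviated together from their group means (r = 0.801, 0.53 and 0.572), so a replicate block was run beside the unblocked comparison that gives the values reported. Arrays of slide 2 with different numbers correlated as much (0.61 and 0.632). Alternatives were slide and replicate blocks, other filters, normexp on median signals (offset 50), quantile normalisation, slide 2 alone, the methods' t-test and leaving out each array.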

Additional observations from a re-analysis of the deposited data

How the results depend on the processing

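The blocks and the filters leave the KRT14 difference at -1.53 by construction. In the other 10 alternatives that gave a difference it lay between -1.60 and -1.31, the latter on slide 2 alone. The replicate block called 1399 features, against 235 without it, with the same 2 KRT14 features among them. The count of called features was 1917 with slide as a block and 983 on slide 2 alone. It was 4077 from the authors' slide-centred table, which was fitted without a slide term. It was 143 when every array had to be well above background and 101 with normexp on median signal. The methods' t-test gave 8 features after adjustment and 2590 at an unadjusted p under 0.05. Leaving out 1 array gave 86 to 242 features. Keratin features called numbered 2 in the main comparison, 0 with the methods' t-test (2 at an unadjusted p under 0.05) and 0 to 2 with 1 array left out. For the difference between slides in the culture effect, 10 features were called, 493 with no filter, 79 with normexp, 4 with quantile normalisation and 0 with any 1 array of slide 2 left out (limma, 1950 to 2602 at an unadjusted p under 0.05). The cause was not tested. normexp moved the median of all features between slides from -0.04 to 0.10. KRT15 was -0.25 on slide 2 alone, -0.01 without mix culture replicate 1 and 0.86 without mix culture replicate 2. normexp moved KRT5 to -0.07 (and with it the basal median) and KRT80 to -0.11. With 1 array left out, KRT18 lay between -0.55 and -0.22 and KRT80 between -0.70 and -0.25. Dim features (KRT17, KRT20, KRT5 probe 2) are limited by signal over background.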
